A study of Mus musculus with 15 samples.

Results

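The 36 genes described here encode parts of the autophagy machinery, the lysosome and the transcription factors that act on both, and they were taken by gene symbol from a list of such genes. The list was chosen with earlier results of these data known, so shares called among the 36 describe the list only. All 36 were found among the 23412 genes counted in each of 15 polyA RNA-seq libraries of mouse embryonic stem cells (mESCs), and all 36 were among the 14508 genes that passed the filter on low counts. They fall into 6 groups by role, with 4 autophagy receptors, 4 genes of the ATG8 family, 6 genes of autophagosome formation, 4 MiT/TFE regulators including folliculin, 10 lysosomal hydrolases and activators, and 8 genes of the lysosomal membrane, transport and acidification.

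The study compared the loss of STAG1 and of STAG2, the alternative STAG subunits of the cohesin complex. The cells were the male v6.5 mESC line, either wild-type, Stag1-/- or Stag2-/-, with each knockout genotype being 1 CRISPR-Cas9 clone. Wild-type and Stag2-/- cells received either siStag1, an siRNA pool against Stag1, or siGLO, the transfection control, while Stag1-/- cells received siGLO. The siRNA was used at 50 nM for 48 h in all of the 5 conditions, and each condition has 3 libraries. Since a genotype is 1 clone, the effect of the genotype and of the clone cannot be told apart, and since the labels do not say that the replicates were separate cultures, p-values measure the spread between these libraries only.

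Autophagy encloses cytoplasmic cargo in a double membrane, the autophagosome, which fuses with the lysosome, where acid hydrolases break the cargo down. Receptor proteins link cargo marked with ubiquitin or sugars to ATG8 proteins on the growing membrane, and the ULK1 kinase complex starts the process. The MiT/TFE factors TFEB, TFE3 and MITF bind E-box sequences near many lysosomal and autophagy genes, and folliculin keeps these factors in the cytoplasm when nutrients are present. In mESCs, TFE3 is also known for acting in self-renewal and the exit from it.

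Between 14982560 and 19070126 counts fell on genes per library (median 17700059), and the lowest raw count of any of the 36 genes was 52, for Mitf in 1 library, so that all of them were measured well above the floor of 3 counts, which covers counting error only. The libraries were checked against the targeted genes. Normalized Stag2 counts were 663, 739 and 675 in Stag2-/- siGLO and 851, 931 and 940 in Stag2-/- siStag1, whereas wild-type siGLO had 2329, 2334 and 2329. For Stag1 the values were 517, 456 and 353 in wild-type siStag1 and 667, 781 and 629 in Stag2-/- siStag1, against 2288, 2137 and 2012 in wild-type siGLO. Stag1 counts in Stag1-/- siGLO, at 1826, 2368 and 1875, did not differ from wild-type beyond their spread (log2 fold change −0.09, SE 0.13, adjusted p = 0.728 from edgeR's quasi-likelihood test), so this clone's label is not checked by the count. According to the study's description, the clone carries an in-frame deletion that leaves the transcript but no protein that could be detected. The 8 mESC markers examined summed to 86786 to 93094 normalized counts in wild-type siGLO, 79221 to 82984 in wild-type siStag1, 68278 to 81065 in Stag1-/- siGLO, 61983 to 80449 in Stag2-/- siGLO and 42041 to 55755 in Stag2-/- siStag1. Against wild-type siGLO, 1 of the 8 was lower in Stag1-/- (3 with the replicate number as a block), 4 in Stag2-/- and 7 in Stag2-/- siStag1 cells (median log2 fold change −1.33 in the last) by the edgeR test. None of the 8 was called in wild-type siStag1 cells without the block, and 1 was lower with it. The summed level of 8 markers of primitive and visceral endoderm, cells that take up and degrade much material in lysosomes, was 8882 to 9705 in wild-type siGLO and 7963 to 8490 in wild-type siStag1, but 532 to 954 in Stag1-/- siGLO, 1305 to 2296 in Stag2-/- siGLO and 1551 to 2223 in Stag2-/- siStag1. All 8 endoderm markers were lower in each of the last 3 conditions than in wild-type siGLO by the edgeR test, and the part of either marker list in the results below was not tested. In these bulk samples, fewer cells of a type and less RNA per cell cannot be told apart. Of 6 leukocyte markers, which summed to 66.7 to 283, Ptprc, Aif1 and Lyz2 were too low to be tested, and 6 fibroblast markers summed to 416 to 759, with 2 of the 5 tested higher in Stag2-/- siGLO and 2 in Stag2-/- siStag1 than in wild-type siGLO. In Stag1-/- siGLO, 1 fibroblast marker was lower with the block and none was called without it.

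Counts were scaled by TMM and tested in edgeR with its quasi-likelihood test on all 15 libraries together, and a gene was called differentially expressed where its p, adjusted by Benjamini-Hochberg over all genes tested, was under 0.1. Falls outnumbered rises among the 36 genes in both knockout clones and after dual depletion, and the number called was in the same order over the conditions as that over all genes. In Stag1-/- cells 9 of the 36 genes were differentially expressed against wild-type siGLO (25.0%), against 20.0% of all genes tested, with 3 that rose (10.1% of all genes rose) and 6 that fell (9.93% of all genes fell). In Stag2-/- cells 13 genes were differentially expressed (36.1%, against 28.3% of all genes), and 3 rose and 10 fell, against 13.9% and 14.4% of all genes. In Stag2-/- siStag1 cells the number was 19 (52.8%, against 43.9% of all genes), of which 4 rose and 15 fell, against 22.6% and 21.3%. The mESC markers were lowest in this condition, as given above, and their part in these falls was not tested. Stag1 knockdown in wild-type cells changed 1 of the 36, the autophagy receptor Calcoco2, against 0.248% of all genes. The median log2 fold change over the 36 genes was −0.06 in Stag1-/-, −0.17 in Stag2-/-, −0.04 in wild-type siStag1 and −0.25 in Stag2-/- siStag1 cells, whereas the median of all genes tested was between −0.01 and 0.01 in these comparisons. These 4 comparisons share the wild-type siGLO libraries. The count in Stag2-/- cells was 8 without wild-type siGLO replicate 2, where the calls over all genes went from 4110 to 2524.

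**Figure D1:**
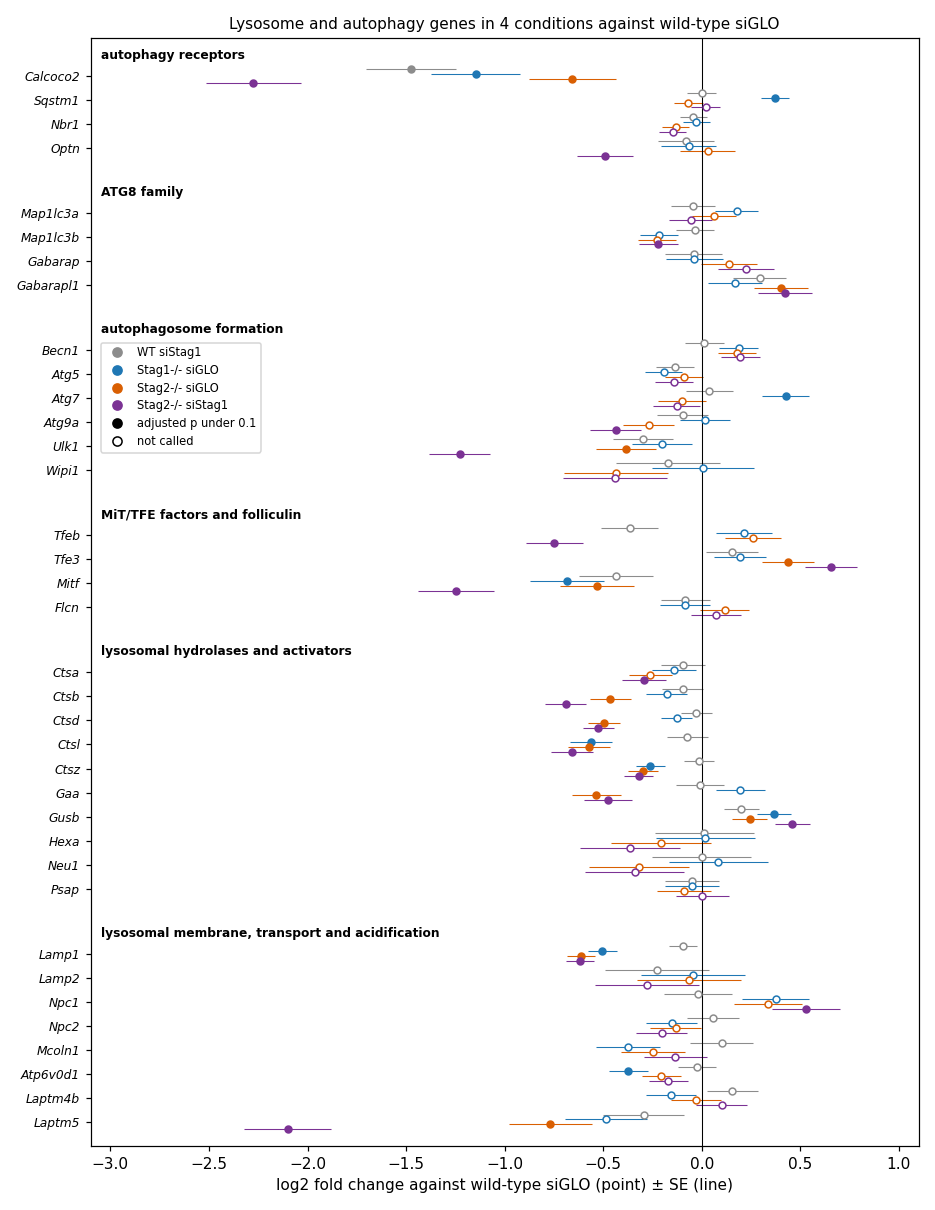
Log2 fold change of the 36 genes against wild-type siGLO (x axis, point ± SE) by role in 4 conditions, which are wild-type siStag1, both knockout clones with siGLO, and Stag2-/- with siStag1, with filled points at adjusted p under 0.1. Calcoco2 lies left of 0 in all 4 conditions, and the values of Stag2-/- siStag1 for Calcoco2 (−2.27) and Laptm5 (−2.10) lie farthest from 0.

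Same-numbered libraries deviated from their condition means together in 4 of the comparisons, so numbers of calls in those comparisons are also given with the replicate number as a block where the block changed them. For Stag1-/- against wild-type siGLO, the block raised the number of differentially expressed genes among the 36 from 9 to 15, with 6 that rose and 9 that fell, against 30.6% of all genes. The genes added were Npc1 (log2 fold change 0.40, adjusted p = 0.0146 from edgeR with the block), Gaa (0.21, adjusted p = 0.0512) and Becn1 (0.19, adjusted p = 0.0963), which were higher, and Laptm5 (−0.51, adjusted p = 0.0513), Mcoln1 (−0.37, adjusted p = 0.0101) and Map1lc3b (−0.22, adjusted p = 0.0709), which were lower. For wild-type siStag1 the block still gave 1 of the 36, although the share of all genes rose to 1.63%.

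Among the autophagy receptors, Calcoco2 had the largest change of the 36 genes. Its product, NDP52, is known mainly from human cells as a receptor that brings damaged organelles and microbes to the autophagosome. That role was not examined in these mouse cells. The gene lies on chromosome 11 (mm10, chr11:96099326-96111964, minus strand). Normalized counts of Calcoco2 were 347, 292 and 205 in wild-type siGLO, 138, 85.5 and 82.2 in wild-type siStag1, and 156, 106 and 119 in Stag1-/- siGLO. They were 190, 198 and 147 in Stag2-/- siGLO and 56.2, 59.3 and 58.7 in Stag2-/- siStag1. Every library of the other 4 conditions was below every wild-type siGLO library, and the 3 libraries with both STAG proteins depleted were the lowest. Calcoco2 was 2.78-fold lower after Stag1 knockdown in wild-type cells (log2 fold change −1.47, SE 0.23, adjusted p = 0.0306 from edgeR) and 2.22-fold lower in Stag1-/- cells (−1.15, SE 0.23, adjusted p = 0.00263). It was 1.58-fold lower in Stag2-/- cells (−0.66, SE 0.22, adjusted p = 0.0468 from edgeR) and 4.84-fold lower in Stag2-/- siStag1 cells (−2.27, SE 0.24, adjusted p = 3.13e-06). The fall after Stag1 knockdown in wild-type cells was lost without wild-type siGLO replicate 2, wild-type siStag1 replicate 2 or wild-type siStag1 replicate 3 (adjusted p from 0.133 to 0.218, log2 fold change from −1.34 to −1.45). The fall in Stag2-/- cells was lost without wild-type siGLO replicate 1 or 2 or Stag2-/- siGLO replicate 3 (adjusted p from 0.129 to 0.174).

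The other 3 receptors moved less and differed from each other. Sqstm1 encodes p62, which binds ubiquitinated cargo and is itself degraded by autophagy. It rose in Stag1-/- cells, with 4112, 4454 and 4180 normalized counts against 3071, 3475 and 3299 (log2 fold change 0.37, SE 0.07, adjusted p = 0.00258 from edgeR). Counts of Sqstm1 in the other 3 conditions ran from 3068 to 3553 and overlapped with wild-type siGLO. Optn, which encodes the mitophagy receptor optineurin, had 263, 333 and 247 normalized counts in Stag2-/- siStag1 cells against 429, 349 and 406 in wild-type siGLO (log2 fold change −0.49, SE 0.14, adjusted p = 0.0129 from edgeR). Nbr1, a receptor related to p62, was the steadiest of the 36 genes, with a coefficient of variation between replicates of 2.89% on average over the conditions, and its log2 fold changes against wild-type siGLO lay between −0.15 and −0.03, with none called by edgeR without the block. DESeq2 called the lowest of these, in Stag2-/- siStag1 cells (adjusted p = 0.054).

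**Figure D2:**
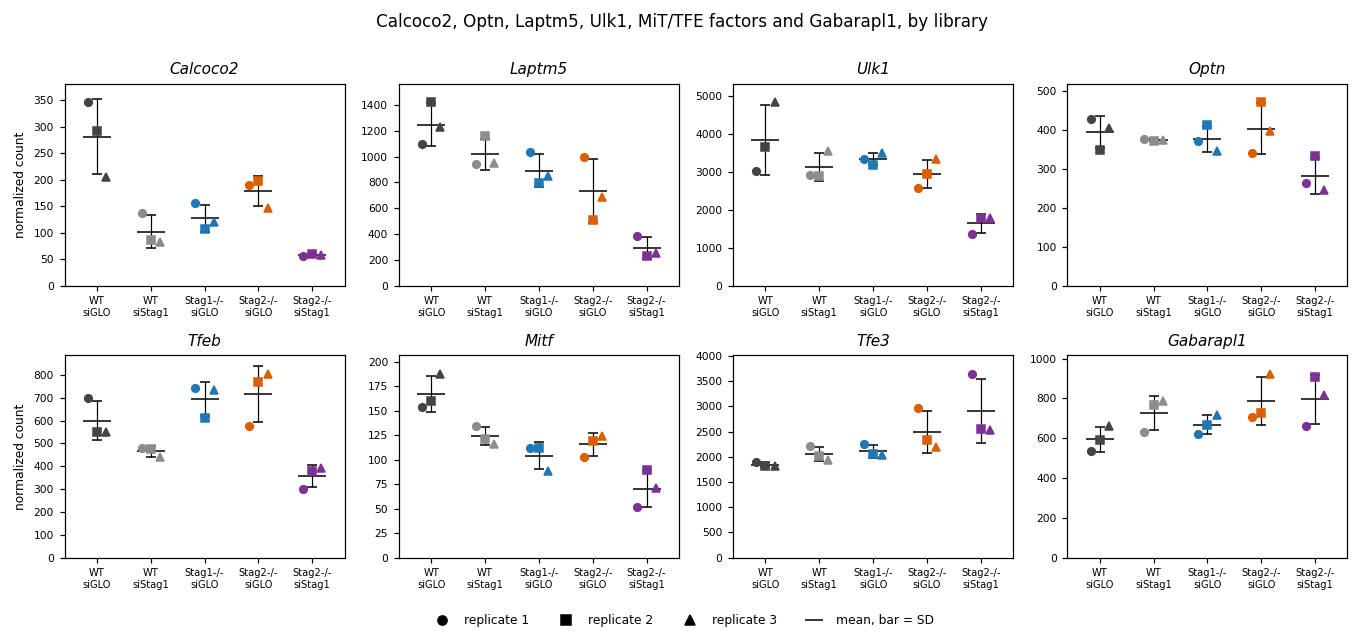
Normalized counts (y axis, from 0) of 8 genes in each library by condition (x axis), with the mean as a horizontal line and the SD as a bar (n = 3) and a marker shape for each replicate number. Calcoco2, Laptm5, Ulk1 and Tfeb have their lowest 3 libraries in Stag2-/- siStag1, while the mean of Tfe3 is highest there, with replicate 1 at 3648.

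The ATG8 family holds the ubiquitin-like proteins that are joined to lipid on the autophagosome membrane. Gabarapl1 was the member that rose, with 706, 726 and 924 normalized counts in Stag2-/- siGLO and 663, 908 and 817 in Stag2-/- siStag1, against 535, 590 and 659 in wild-type siGLO. These are log2 fold changes of 0.40 (SE 0.14, adjusted p = 0.0479 from edgeR) and 0.42 (SE 0.14, adjusted p = 0.0238), and no library of either condition overlapped with wild-type siGLO. The first was lost without wild-type siGLO replicate 1 or 2 or Stag2-/- siGLO replicate 3 (adjusted p from 0.127 to 0.207), and the second without Stag2-/- siStag1 replicate 2 (adjusted p = 0.12). Map1lc3b, which encodes the commonly used autophagosome marker LC3B, fell by 0.22 on the log2 scale in Stag2-/- siStag1 cells (SE 0.10, adjusted p = 0.0884 from edgeR). It lies on chromosome 8, where the median log2 fold change of all 761 genes tested was −0.23 in that comparison. The fall was lost without any of the 3 wild-type siGLO libraries or without Stag2-/- siStag1 replicate 1 or 3 (adjusted p from 0.107 to 0.304). Map1lc3a and Gabarap were not called in any comparison without the block, with normalized counts of 404 to 560 and 701 to 1050 over the 15 libraries.

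Of the 6 genes of autophagosome formation, Ulk1 had the largest change against wild-type siGLO, which was in Stag2-/- siStag1 cells. Ulk1 encodes the kinase that starts autophagy and that mTORC1 and AMPK control, and it lies on chromosome 5 (mm10, chr5:110784488-110810097, minus strand). Normalized counts were 3039, 3673 and 4856 in wild-type siGLO, 2937, 2903 and 3569 in wild-type siStag1, and 3343, 3198 and 3510 in Stag1-/- siGLO. They were 2587, 2942 and 3339 in Stag2-/- siGLO and 1353, 1795 and 1794 in Stag2-/- siStag1. The libraries with dual depletion lay apart from all others, while those of the remaining conditions overlapped with wild-type siGLO, whose own values had an SD of 922. Ulk1 was 2.34-fold lower in Stag2-/- siStag1 cells than in wild-type siGLO (log2 fold change −1.23, SE 0.15, adjusted p = 1.76e-05 from edgeR). Its log2 fold change in Stag2-/- cells was −0.38 (SE 0.15, adjusted p = 0.0858 from edgeR), and this call was lost without wild-type siGLO replicate 2 or 3 or Stag2-/- siGLO replicate 1 or 2, with an adjusted p of up to 0.423 and a log2 fold change of −0.18 without wild-type siGLO replicate 3.

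Atg7, which encodes the enzyme that activates ATG8 proteins and ATG12 for conjugation, rose in Stag1-/- cells, with 575, 471 and 407 normalized counts against 378, 357 and 346 in wild-type siGLO (log2 fold change 0.43, SE 0.12, adjusted p = 0.0243 from edgeR). The rise rests on Stag1-/- siGLO replicate 1, without which the log2 fold change was 0.29 (adjusted p = 0.128 from edgeR). In the other conditions Atg7 was at 312 to 375 normalized counts. Atg9a, which encodes the lipid scramblase of the autophagy vesicles, fell by 0.44 on the log2 scale in Stag2-/- siStag1 cells (SE 0.13, adjusted p = 0.0151 from edgeR), with 356, 352 and 346 normalized counts against 394, 485 and 548 in wild-type siGLO. Becn1 (beclin 1, a subunit of the lipid kinase complex), Atg5 (a conjugation factor) and Wipi1 (a binder of the lipid this kinase makes) were not called in any comparison without the block. Their normalized counts were 807 to 1068, 516 to 712 and 138 to 354 over the 15 libraries.

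The MiT/TFE factors moved in different directions. Tfe3 rose in Stag2-/- cells, with 2967, 2330 and 2196 normalized counts, and in Stag2-/- siStag1 cells, with 3648, 2543 and 2539, against 1901, 1825 and 1813 in wild-type siGLO. The log2 fold changes were 0.44 (SE 0.13, adjusted p = 0.0291 from edgeR) and 0.66 (SE 0.13, adjusted p = 0.00113). Replicate 1 was the highest Tfe3 library in each of the 5 conditions, and the call in Stag2-/- cells was lost without replicate 1 of that condition (log2 fold change 0.29, adjusted p = 0.129 from edgeR). Tfe3 lies on the X chromosome, whose tested genes had a median of 0.12 in Stag2-/- and 0.13 in Stag2-/- siStag1 cells.

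Tfeb, the factor most often named as the master regulator of lysosomal genes, lies on chromosome 17 (mm10, chr17:47737030-47792419, plus strand) and had normalized counts of 697, 551 and 548 in wild-type siGLO. It had 481, 475 and 438 in wild-type siStag1, 743, 610 and 733 in Stag1-/- siGLO, 578, 769 and 805 in Stag2-/- siGLO and 300, 379 and 391 in Stag2-/- siStag1. Tfeb fell in the last of these against wild-type siGLO (log2 fold change −0.75, SE 0.15, adjusted p = 0.000844 from edgeR), and the libraries of both Stag2-/- conditions did not overlap. Its log2 fold change was −0.37 in wild-type siStag1 (SE 0.14, adjusted p = 0.639 from edgeR) and was not called there. Mitf, the factor of pigment cells and osteoclasts, was the lowest of the 36 genes per kilobase of exon in wild-type siGLO, with 27.0 ± 2.90 normalized counts per kilobase (SD, n = 3). Its normalized counts were 154, 160 and 188 in wild-type siGLO, 112, 112 and 88.6 in Stag1-/- siGLO, 103, 120 and 125 in Stag2-/- siGLO and 51.3, 89.5 and 70.8 in Stag2-/- siStag1. Mitf fell in Stag1-/- (log2 fold change −0.68, SE 0.19, adjusted p = 0.0236 from edgeR), Stag2-/- (−0.53, SE 0.19, adjusted p = 0.0567) and Stag2-/- siStag1 cells (−1.25, SE 0.19, adjusted p = 0.00013). The call in Stag2-/- cells was lost without wild-type siGLO replicate 2 or 3 or Stag2-/- siGLO replicate 1 or 2 (adjusted p from 0.107 to 0.187). Flcn, which encodes folliculin, was not called in any comparison, with 671 to 975 normalized counts.

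Several of the lysosomal genes hold E-box sequences of the kind bound by MiT/TFE factors close to a RefSeq start site. These are printed because the factors and the lysosomal genes are described side by side here. RefSeq promoters (GRCm38.p6, from 250 bases before to 50 after the start site) were at hand for 30 of the 36 genes. The palindrome TCACGTGA, the core of the motif named CLEAR, was found in 4 of the 30 (13.3%), against 304 of the 27025 genes with a promoter in the table (1.12%). The shorter E-box CACGTG, which is part of the former, was found in 9 of the 30 (30%), against 2187 of the 27025 genes (8.09%). Since both motifs are palindromes, a match on either strand is the same match. A match is a description of the sequence and not a bound site. The 27025 genes include genes that were not tested here, whereas all 36 passed the filter on low counts. The shares were not compared among expressed genes. The stretches that hold the matches follow for 5 genes, 5′ to 3′ on the strand of the gene, with the motifs in capitals. They are Ctsd (chr7:142387890-142388077, minus strand), Ctsl (chr13:64370721-64370770, minus strand), Lamp1 (chr8:13159070-13159181, plus strand), Ctsa (chr2:164833731-164833813, plus strand) and Gaa (chr11:119267793-119267858, plus strand).
Ctsd: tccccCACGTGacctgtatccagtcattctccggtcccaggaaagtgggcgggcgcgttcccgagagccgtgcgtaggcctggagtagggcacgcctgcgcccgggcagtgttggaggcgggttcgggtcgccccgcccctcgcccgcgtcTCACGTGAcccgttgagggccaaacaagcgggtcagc
Ctsl: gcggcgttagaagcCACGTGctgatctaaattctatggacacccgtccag
Lamp1: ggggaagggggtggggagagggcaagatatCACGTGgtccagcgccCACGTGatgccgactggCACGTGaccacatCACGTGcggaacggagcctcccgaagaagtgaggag
Ctsa: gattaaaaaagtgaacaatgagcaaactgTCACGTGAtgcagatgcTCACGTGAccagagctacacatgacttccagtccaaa
Gaa: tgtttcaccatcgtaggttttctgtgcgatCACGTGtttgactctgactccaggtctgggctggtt
Lamp1 held 4 matches, more than any other gene of the 30. The other 4 genes with a match were Mcoln1 and Atp6v0d1, which hold the longer motif, and Atg5 and Atg7, which hold the shorter one. The stretches of Ctsl, Ctsa (2 RefSeq promoters) and Atg7 (chr6:114670934-114670999) lie inside the genes as annotated in GENCODE. Those of Ctsa and Atg7 are far from the annotated gene starts, chr2:164832873 and chr6:114643097. The stretches of Mcoln1 (chr8:3500418-3500509, plus strand) and Atp6v0d1 (chr8:105566032-105566097, minus strand), which also lie on the chromosome of Lamp1, were as follows.
Mcoln1: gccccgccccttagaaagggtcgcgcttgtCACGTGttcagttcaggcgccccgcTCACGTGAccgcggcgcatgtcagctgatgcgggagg
Atp6v0d1: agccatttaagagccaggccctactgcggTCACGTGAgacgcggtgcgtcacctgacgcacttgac

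The 10 lysosomal hydrolases and activators held 5 of the 10 falls in Stag2-/- cells, where 1 more of them rose and 4 were not called (60% called, against 28.3% of all genes). Ctsd, which encodes the aspartic protease cathepsin D, lies on chromosome 7 (mm10, chr7:142375911-142388038, minus strand) and was second only to Lamp1 in level per kilobase of exon in wild-type siGLO (1779 ± 74.3 normalized counts per kilobase, SD, n = 3). Normalized counts of Ctsd were 3983, 4304 and 4263 in wild-type siGLO, 3779, 4063 and 3643 in Stag1-/- siGLO, 2751, 3193 and 2956 in Stag2-/- siGLO and 2762, 3060 and 2898 in Stag2-/- siStag1. The 6 Stag2-/- libraries lay below all others, whereas Stag1-/- overlapped with wild-type siGLO. Ctsd fell in Stag2-/- (log2 fold change −0.50, SE 0.08, adjusted p = 0.000432 from edgeR) and Stag2-/- siStag1 cells (−0.53, SE 0.08, adjusted p = 9.07e-05), while the value in Stag1-/- cells, −0.13, was not called.

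Ctsb, which encodes the cysteine protease cathepsin B, had 2245, 2661 and 2627 normalized counts in wild-type siGLO. It had 1602, 1885 and 1971 in Stag2-/- siGLO (log2 fold change −0.46, SE 0.10, adjusted p = 0.00541 from edgeR) and 1415, 1616 and 1638 in Stag2-/- siStag1 (−0.69, SE 0.10, adjusted p = 0.000104). Neither condition overlapped with wild-type siGLO. Ctsl, which encodes cathepsin L, had 4312, 4109 and 4035 normalized counts in wild-type siGLO, 2665, 2703 and 3076 in Stag1-/- siGLO, 2418, 2964 and 2995 in Stag2-/- siGLO and 2326, 2826 and 2744 in Stag2-/- siStag1. It was lower in Stag1-/- (log2 fold change −0.56, SE 0.11, adjusted p = 0.00202 from edgeR), in Stag2-/- (−0.57, SE 0.11, adjusted p = 0.00148) and in Stag2-/- siStag1 cells (−0.66, SE 0.11, adjusted p = 0.000176). All 9 of these libraries were below the 6 wild-type libraries. Ctsz, the gene of the carboxypeptidase cathepsin Z, fell by 0.26, 0.30 and 0.32 on the log2 scale in the same order (SE 0.08 in each, adjusted p from 0.00346 to 0.0294 in edgeR), from 1577 to 1682 normalized counts in wild-type siGLO to between 1259 and 1451. In Stag1-/- cells the fall of Ctsz was lost without wild-type siGLO replicate 2 (adjusted p = 0.114 from edgeR).

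Gaa, the acid alpha-glucosidase that degrades glycogen in lysosomes, had 1404, 1598 and 1873 normalized counts in wild-type siGLO. It had 1835, 1808 and 1944 in Stag1-/- siGLO, 1040, 1067 and 1258 in Stag2-/- siGLO and 1039, 1182 and 1285 in Stag2-/- siStag1. The libraries of both Stag2-/- conditions lay below all others and those of Stag1-/- overlapped with the upper end of wild-type siGLO. Its value in Stag1-/- cells was called with the block only, as given above. Gaa fell in Stag2-/- (log2 fold change −0.53, SE 0.12, adjusted p = 0.00658 from edgeR) and Stag2-/- siStag1 cells (−0.48, SE 0.12, adjusted p = 0.00674). Gusb, which encodes beta-glucuronidase, went the other way. It had 691, 569 and 603 normalized counts in wild-type siGLO, 810, 810 and 783 in Stag1-/- siGLO, 732, 784 and 689 in Stag2-/- siGLO and 853, 870 and 841 in Stag2-/- siStag1. The log2 fold changes were 0.37 (SE 0.09, adjusted p = 0.0105 from edgeR), 0.24 (SE 0.09, adjusted p = 0.0624) and 0.46 (SE 0.09, adjusted p = 0.000749). The call in Stag2-/- cells, whose libraries overlapped with wild-type siGLO, was lost without wild-type siGLO replicate 2 or 3 or Stag2-/- siGLO replicate 1 or 2 (adjusted p from 0.107 to 0.244). Ctsa, which encodes the protective protein cathepsin A, fell by 0.29 on the log2 scale in Stag2-/- siStag1 cells (SE 0.11, adjusted p = 0.0501 from edgeR), a call lost without wild-type siGLO replicate 3 or Stag2-/- siStag1 replicate 1 or 3 (adjusted p from 0.111 to 0.221). Hexa, Neu1 and Psap, genes of a beta-hexosaminidase subunit, of a sialidase and of the saposin precursor, were not called in any comparison without the block, with ranges over the 15 libraries of 582 to 1369, 230 to 579 and 3365 to 4695 normalized counts. The summed endoderm markers were lower in all of the 3 conditions in which Ctsl and Ctsz fell, and lowest in Stag1-/- cells, where Ctsd and Ctsb were not called (log2 fold changes −0.13 and −0.18, adjusted p = 0.315 and 0.295 from edgeR). In wild-type siStag1 cells, where those markers were within 7963 to 8490, none of the 10 hydrolase genes was called by edgeR or DESeq2. Over all genes, edgeR called 0.248% and DESeq2 133 genes there. An unadjusted p under 0.05 was found for 1 of the 10, against 922 of the 14508 genes tested. The part of the endoderm markers, and of the mESC markers given above, was not tested.

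**Figure D3:**
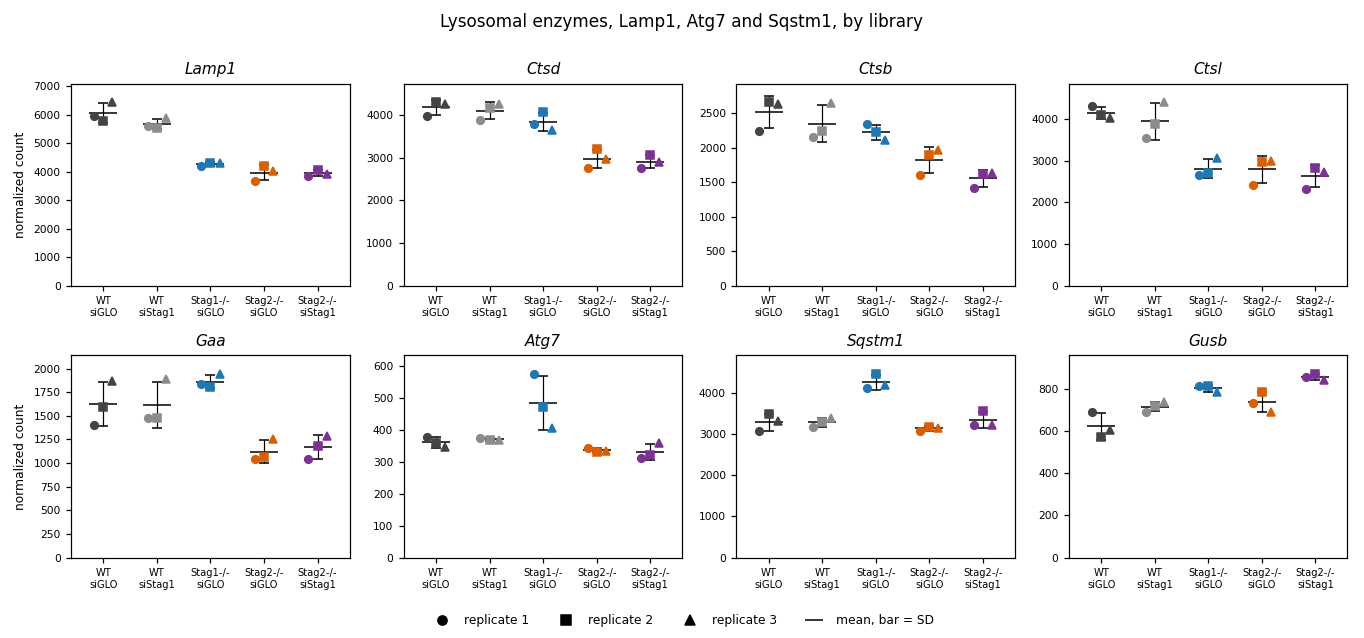
Normalized counts (y axis, from 0) of Lamp1, 5 hydrolase genes, Atg7 and Sqstm1 in each library by condition (x axis), with mean, SD (bar, n = 3) and a marker shape for each replicate number. Lamp1 and Ctsl are lower in Stag1-/- and in both Stag2-/- conditions, Ctsd, Ctsb and Gaa are lowest in the Stag2-/- conditions, and Atg7 and Sqstm1 are highest in Stag1-/-.

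Among the 8 genes of the lysosomal membrane, transport and acidification, Lamp1 and Laptm5 changed most. Lamp1, the gene of a glycoprotein that lines the lysosomal membrane, lies on chromosome 8 (mm10, chr8:13159161-13175338, plus strand) and had the highest level of the 36 per kilobase of exon in wild-type siGLO, at 2269 ± 132 normalized counts per kilobase (SD, n = 3). Normalized counts were 5974, 5773 and 6459 in wild-type siGLO, 5616, 5550 and 5883 in wild-type siStag1, and 4202, 4325 and 4314 in Stag1-/- siGLO. They were 3677, 4209 and 4026 in Stag2-/- siGLO and 3867, 4078 and 3920 in Stag2-/- siStag1. All 9 libraries of the knockout clones lay below the 6 wild-type libraries. Lamp1 fell in Stag1-/- (log2 fold change −0.50, SE 0.07, adjusted p = 0.000205 from edgeR), Stag2-/- (−0.61, SE 0.07, adjusted p = 3.4e-05) and Stag2-/- siStag1 cells (−0.62, SE 0.07, adjusted p = 8.63e-06).

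Chromosome 8 as a whole was lower in these 3 comparisons. The median log2 fold change of the 761 genes tested on it was −0.19 in Stag1-/-, −0.21 in Stag2-/- and −0.23 in Stag2-/- siStag1 cells, where 76.2%, 75.4% and 72.1% of them had values below 0. It was 0.00 in wild-type siStag1, and the medians of the other chromosomes in the 3 comparisons lay between −0.05 and 0.13. Relative to the chromosome 8 median, the changes of Lamp1 were −0.31, −0.41 and −0.39. Atp6v0d1, which encodes a subunit of the proton pump that acidifies the lysosome, is also on chromosome 8 and had 870, 915 and 1040 normalized counts in Stag1-/- siGLO against 1186, 1182 and 1289 in wild-type siGLO. Its fall there was 0.37 on the log2 scale (edgeR, adjusted p = 0.0194, SE 0.10) and −0.18 relative to the median of its chromosome. Mcoln1, the gene of the lysosomal calcium channel TRPML1 and the last of the 4 genes on chromosome 8, was not called in any comparison without the block, with log2 fold changes of −0.37, −0.25 and −0.13 in the 3 comparisons. The part of the chromosome in these values was not tested.

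**Figure D4:**
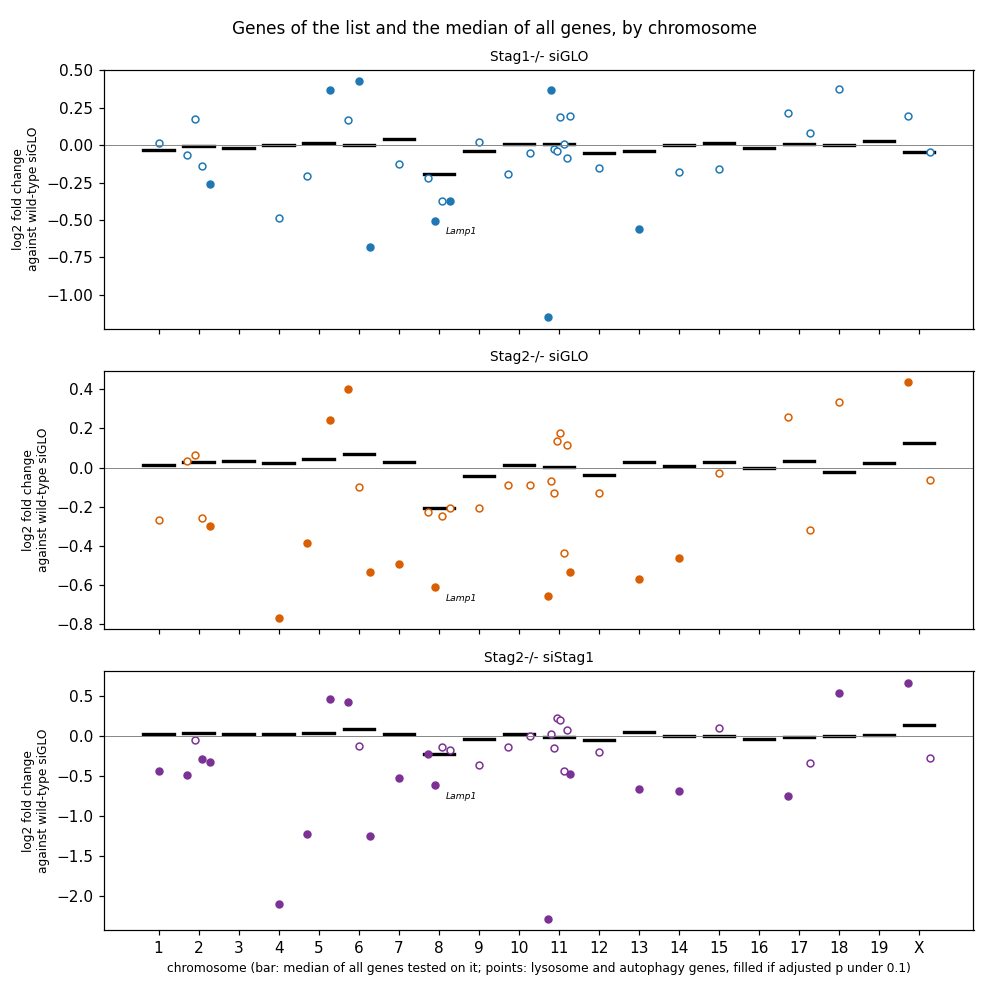
Log2 fold change against wild-type siGLO (y axis) of the 36 genes (points, filled at adjusted p under 0.1) and the median of all genes tested (bar) by chromosome (x axis) in both clones with siGLO and in Stag2-/- with siStag1. The bar of chromosome 8 lies at −0.19, −0.21 and −0.23, and the labelled point of Lamp1 lies below it in each panel.

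Laptm5 encodes a lysosomal membrane protein known best from blood cells, and lies on chromosome 4 (mm10, chr4:130913125-130936141, plus strand). Normalized counts were 1094, 1423 and 1226 in wild-type siGLO, 945, 1157 and 949 in wild-type siStag1, and 1032, 792 and 848 in Stag1-/- siGLO. They were 997, 512 and 689 in Stag2-/- siGLO and 385, 233 and 254 in Stag2-/- siStag1. The last 3 libraries were the lowest of the 15, while Stag2-/- siGLO had the widest spread, with an SD of 245. Laptm5 was 1.70-fold lower in Stag2-/- (log2 fold change −0.77, SE 0.21, adjusted p = 0.0167 from edgeR) and 4.29-fold lower in Stag2-/- siStag1 cells (−2.10, SE 0.22, adjusted p = 2.87e-06). The leukocyte markers Ptprc, Aif1 and Lyz2 did not exceed 3, 3 and 5 counts in any library, and the sum over the 6 leukocyte markers, to which Cd68 (itself a lysosomal membrane gene) gave up to 270.0 counts, was 213 to 283 in wild-type siGLO, 145 to 206 in Stag2-/- siGLO and 66.7 to 119 in Stag2-/- siStag1. Npc1, the gene of the membrane transporter that exports cholesterol from the lysosome, rose in Stag2-/- siStag1 cells, with 1166, 1816 and 1848 normalized counts against 919, 1087 and 1339 in wild-type siGLO (log2 fold change 0.53, SE 0.17, adjusted p = 0.024 from edgeR). The groups overlapped, and the call was lost without wild-type siGLO replicate 1 or Stag2-/- siStag1 replicate 3 (adjusted p = 0.105 and 0.104 from edgeR). Lamp2 (a further membrane glycoprotein), Npc2 (the soluble partner of NPC1) and Laptm4b (related to Laptm5) were not called in any comparison without the block, with 569 to 1456, 1587 to 2633 and 1087 to 1650 normalized counts over the 15 libraries.

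Stag1-/- and Stag2-/- cells, both with siGLO, were also compared directly. Of the 36 genes, 5 were differentially expressed (13.9%, against 25.7% of all genes), and all 5 were higher in Stag1-/- cells, where 12.7% of all genes were higher and 12.9% lower. Gaa differed by 0.73 on the log2 scale (edgeR, adjusted p = 0.000761, SE 0.12), Atg7 by 0.53 (SE 0.12, adjusted p = 0.00627), Sqstm1 by 0.44 (SE 0.07, adjusted p = 0.000623) and Ctsd by 0.37 (SE 0.08, adjusted p = 0.00417). In none of these 4 genes did the libraries of both clones overlap. As the 4 were picked as called, this is not separate support for the differences. Ctsb differed by 0.29 (SE 0.10, adjusted p = 0.067 from edgeR), with 2335, 2219 and 2112 normalized counts in Stag1-/- siGLO against the 1602 to 1971 of Stag2-/- siGLO, and this call was lost without replicate 1 or 2 of either clone (adjusted p from 0.104 to 0.227). Between the clones, 5 of the 8 endoderm markers (median log2 difference −1.26), 1 of the 8 mESC markers and 1 of the 5 fibroblast markers tested were lower in Stag1-/- cells. Higher there were 3 mESC markers (4 with the block) and 1 of the 3 leukocyte markers tested. The part of these markers was not tested. Calcoco2, Lamp1, Ctsl, Ctsz and Mitf, which fell in each clone against the shared wild-type libraries, were not called between the clones without the block. The median log2 difference over the 36 genes was 0.04, against −0.03 over all genes tested. With the replicate number as a block, 12 of the 36 genes differed (against 37.3% of all genes), 9 higher and 3 lower in Stag1-/- cells. Those added were Neu1 (log2 difference 0.42, adjusted p = 0.0196 from edgeR with the block), Wipi1 (0.41, adjusted p = 0.0329), Atg9a (0.29, adjusted p = 0.0596) and Hexa (0.26, adjusted p = 0.0983) on the higher side, and Calcoco2 (−0.49, adjusted p = 0.0407), Tfe3 (−0.23, adjusted p = 0.0497) and Gabarapl1 (−0.23, adjusted p = 0.0692) on the lower.

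Knockdown of Stag1 within Stag2-/- cells asked what the remaining STAG1 contributes, and here 6 of the 36 genes changed (16.7%, against 6.37% of all genes). All 6 fell, where 3.39% of all genes fell and 2.98% rose. They are 2 autophagy receptors, the kinase that starts autophagy, 2 MiT/TFE factors and a lysosomal membrane protein. Calcoco2 was 3.07-fold lower (log2 fold change −1.62, SE 0.24, adjusted p = 0.00106 from edgeR), Laptm5 2.52-fold lower (−1.33, SE 0.22, adjusted p = 0.0023) and Tfeb 2.01-fold lower (−1.01, SE 0.15, adjusted p = 0.000772). Ulk1 was 1.79-fold lower (−0.84, SE 0.15, adjusted p = 0.00481 from edgeR). The 3 libraries of each condition did not overlap in any of these 6 genes. As the 6 were picked as called, this is not separate support for the falls. Mitf (−0.71, SE 0.20, adjusted p = 0.0555 from edgeR) and Optn (−0.52, SE 0.14, adjusted p = 0.0523) were close to the threshold. The call of Mitf was lost without Stag2-/- siGLO replicate 2 or 3 or Stag2-/- siStag1 replicate 1 or 3 (adjusted p from 0.12 to 0.164), and that of Optn without Stag2-/- siGLO replicate 2 or 3 or Stag2-/- siStag1 replicate 3 (adjusted p from 0.101 to 0.232). The median log2 fold change over the 36 genes was −0.02, against 0.01 over all genes tested. With the block 6 of the 36 genes were again called, although the share of all genes rose to 14.1%. In a fit of only the compared libraries, 4 of the 36 genes were called, with 224 calls over all genes. Leaving out 1 library gave 4 to 6 calls among the 36 and 416 to 1484 over all genes. None of the 10 hydrolase genes was called by edgeR or DESeq2 in this comparison, where DESeq2 called 1192 of the 14508 genes tested. An unadjusted p under 0.05 was found for 2 of the 10, against 2423 of the 14508 genes. None of the 8 endoderm markers was called by edgeR either without the block (1 with the block, 1 by DESeq2, and an unadjusted p under 0.05 for 1), while 5 of the 8 mESC markers fell (6 with the block), with a summed level of 42041 to 55755 against 61983 to 80449 in Stag2-/- siGLO. The part of the mESC markers in the 6 falls was not tested.

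Whether the effect of siStag1 differed between Stag2-/- and wild-type cells was tested as a difference of both effects. None of the 36 genes passed the threshold in edgeR without the block, against 0.159% of all genes. None did in DESeq2, which called 102 of the 14508 genes tested. Unadjusted p-values were under 0.05 for 4 of the 36 genes, against 842 of the 14508 genes tested, all 4 with a larger fall in Stag2-/- cells. These were Laptm5 (log2 difference −1.04, SE 0.30, adjusted p = 0.389 from edgeR), Tfeb (−0.64, SE 0.20, adjusted p = 0.471), Ulk1 (−0.55, SE 0.22, adjusted p = 0.689) and Optn (−0.44, SE 0.20, adjusted p = 0.828). For Calcoco2, which fell after siStag1 in both genotypes, no difference between the effects was called. Against wild-type siGLO, siStag1 in wild-type cells gave unadjusted p-values under 0.05 for 5 of the 36 genes, against 922 of the 14508 genes tested, and Calcoco2 was the one called.

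Over the 36 genes, the coefficient of variation between replicates, averaged over the conditions, had a median of 10.6% and ran from 2.89% to 25.3%, against a median of 12.3% for all genes tested. Part of that spread followed the replicate number. Replicate 1 was the lowest library in every one of the 5 conditions for 7 of the 36 genes (19.4%), against 5.36% of all genes tested. These were Hexa, Neu1, Lamp2, Npc2, Laptm4b, Wipi1 and Gabarapl1. Hexa, for example, had 825, 945 and 1369 normalized counts in replicates 1, 2 and 3 of wild-type siGLO and 582, 943 and 1193 in those of Stag2-/- siGLO. Lamp2 had 1042, 1363 and 1357 in wild-type siGLO and 569, 1314 and 1225 in Stag2-/- siStag1. Tfe3 was the gene for which replicate 1 was the highest in every condition (2.78%, against 6.58% of all genes). The labels do not say what a replicate number stands for.

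**Figure D5:**
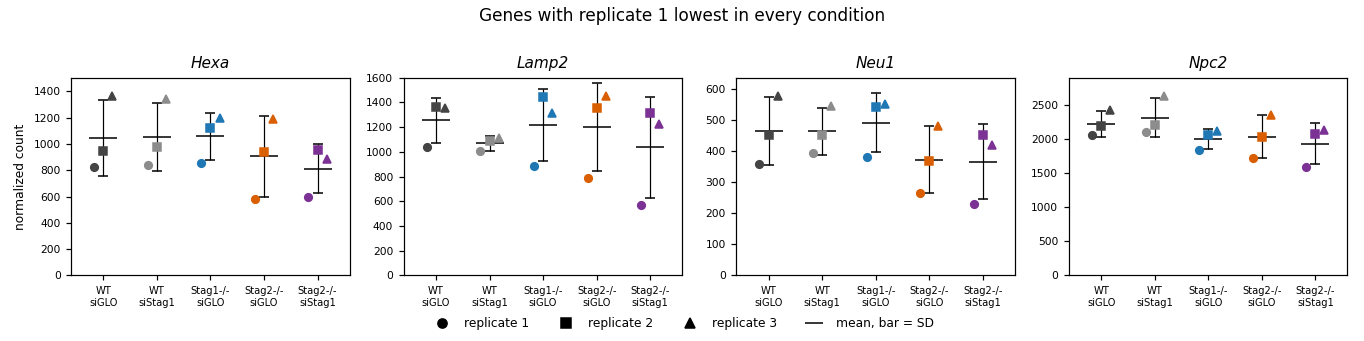
Normalized counts (y axis, from 0) of Hexa, Lamp2, Neu1 and Npc2 in each library by condition (x axis), with mean, SD (bar, n = 3) and a marker shape for each replicate number. The circle, replicate 1, is the lowest library of every condition in all 4 panels.

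Other genes of the same pathways, listed by role, were read from the same fits. In Stag1-/- cells 5 of 15 further V-ATPase subunit genes fell and none rose, 2 of 29 autophagy genes fell, 8 of 32 hydrolase and activator genes fell and 1 rose, 2 of 21 membrane and delivery genes rose, and 3 of 23 genes of mTORC1 and nutrient sensing rose. The shares called were 33.3%, 6.9%, 28.1%, 9.52% and 13.0% in this order, against 20.0% of all genes. With the block, the numbers called were 5, 7, 13, 6 and 5, against 30.6% of all genes. Ctsh, the gene of cathepsin H, fell from a mean of 237 to 14.5 normalized counts (log2 fold change −4.01, SE 0.32, adjusted p = 6.6e-07 from edgeR). Aga fell by 1.30 on the log2 scale, Gabarapl2 by 0.77, Atp6v0a1 by 0.62, Atp6ap2 by 0.51 and Atg14 by 0.43. Rragd, which encodes a Rag GTPase that recruits mTORC1 to the lysosome and is a known MiT/TFE target, rose by 1.23, Sesn3 by 0.68, Fuca1 by 0.40, Gnptab by 0.33 and Vps16 by 0.27.

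In Stag2-/- cells 4 of the 15 V-ATPase genes fell, 4 of the 29 autophagy genes fell and 1 rose, 13 of the 32 hydrolase genes fell and 2 rose, 3 of the 21 membrane and delivery genes fell and 3 rose, and 2 of the 23 nutrient sensing genes fell and 3 rose. The shares called, in the same order of lists, were 26.7%, 17.2%, 46.9%, 28.6% and 21.7%, against 28.3% of all genes. Rragd went from a mean of 508 to 2486 normalized counts (log2 fold change 2.29, SE 0.18, adjusted p = 1.14e-06 from edgeR) and Rragb rose by 1.13. Lgmn, the gene of the protease legumain, went from 2027 to 783 (log2 fold change −1.37, SE 0.09, adjusted p = 4.34e-07 from edgeR) and Ctsh from 237 to 73.4 (−1.69, SE 0.26, adjusted p = 0.000377). Smaller falls were those of Slc17a5 (−0.69), Atp6ap2 (−0.54), Vps39 (−0.51), Fnip1 (−0.50), Atp6v1a (−0.48), Wdr45 (−0.47), Sesn1 (−0.47) and Atg14 (−0.42). Rises were those of Ctso (1.92, from a mean of 4.93 to 18.9 normalized counts), Sort1 (0.64), Acp2 (0.55), Ambra1 (0.29) and Laptm4a (0.23).

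After dual depletion 7 of the 15 V-ATPase genes fell and 1 rose, 7 of the 29 autophagy genes fell and 4 rose, 14 of the 32 hydrolase genes fell and 6 rose, 6 of the 21 membrane and delivery genes fell and 4 rose, and 3 of the 23 nutrient sensing genes fell and 6 rose. These are 53.3%, 37.9%, 62.5%, 47.6% and 39.1% of the lists, against 43.9% of all genes. Rragd was at a mean of 3046 normalized counts (log2 fold change 2.58, SE 0.18, adjusted p = 5.04e-08 from edgeR) and Lgmn at 692 (−1.55, SE 0.09, adjusted p = 8.11e-09). The other genes with the largest rises in their lists were Ctso (2.46), Arsb (1.79), Rragb (1.17), Stx17 (1.06), Ulk2 (0.95), Sort1 (0.90), Gnptab (0.52) and Tcirg1 (0.44). Those with the largest falls were Ctsh (−1.69), Gabarapl2 (−0.91), Wdr45 (−0.75), Atp6ap2 (−0.75), Atp6v1a (−0.64), Slc17a5 (−0.63), Scarb2 (−0.62), Fnip1 (−0.53) and Sesn1 (−0.50). The kinase gene Ulk2 was thus higher where its relative Ulk1 was lower. Stag1 knockdown in wild-type cells changed none of the 120 genes tested on these 5 lists by edgeR, with an unadjusted p under 0.05 for 7 of them, and none by DESeq2. Over all genes 0.248% were called by edgeR there and 133 genes by DESeq2, and 922 of 14508 had an unadjusted p under 0.05.

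Between the clones, Stag1-/- cells had the lower level for 1 of the 15 V-ATPase genes, for 2 of the 29 autophagy genes, 5 of the 32 hydrolase genes, 2 of the 21 membrane and delivery genes and 4 of the 23 nutrient sensing genes, and the higher level for 0, 2, 8, 2 and 0 of them. The shares that differed were 6.67%, 13.8%, 40.6%, 19% and 17.4%, against 25.7% of all genes. With the block, 1, 9, 19, 6 and 6 genes of the lists differed, against 37.3% of all genes. Higher in Stag1-/- cells were Gm2a (log2 difference 0.90), Scarb2 (0.67), Fuca1 (0.51), Atg13 (0.41), Vps39 (0.37) and Atg4d (0.28). Lower were Ctsh (−2.32), Rragd (−1.06), Rragb (−0.72), Ctsf (−0.53), Stx17 (−0.52), Sort1 (−0.37), Atp6v0a1 (−0.28), Wipi2 (−0.25) and Laptm4a (−0.20). Knockdown of Stag1 within Stag2-/- cells changed none of the V-ATPase and autophagy genes on these lists at the threshold in edgeR without the block. Of them, 1 and 3 had an unadjusted p under 0.05, against 2423 of the 14508 genes tested. DESeq2 called 0 and 2 of them, against 1192 over all genes. The knockdown lowered 3 hydrolase genes, among them Manba (−1.08), along with M6pr (−0.36) and Lamtor3 (−0.43), and raised Gnptab (0.32). The genes called made up 9.38% of the hydrolase list, 9.52% of the membrane and delivery list and 4.35% of the nutrient sensing list, against 6.37% of all genes. With the block, 1 V-ATPase gene fell, 2 autophagy genes rose and 2 fell, and 4 hydrolase, 5 membrane and delivery and 3 nutrient sensing genes were called, against 14.1% of all genes.

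Some of these counts can include reads of other transcripts. Becn1 shares 3104 bases of exon with Cntd1 on the opposite strand, Ctsb 774 with Fdft1, Gabarapl1 570 with 1700101I11Rik, Ctsa 495 with Pltp and Lamp1 249 with Grtp1. With genes whose symbols are not among those counted, Ctsl shares 1742 (Gm47123), Sqstm1 580 (Mrnip) and Npc1 511 (Rmc1), also on the opposite strand. As the strand setting of the counting is not given in the sources used here, reads of such pairs may not have been told apart. Of the stretches of 150 bases in their exons, Atg9a shares 1683 of 6379 with Gm29253 and Ctsd 660 of 2349 with Gm49369, transcripts that are not among the counted genes.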

How the data were processed

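Counts per gene were deposited by the authors for each of the 15 polyA RNA-seq libraries, as whole numbers without normalization. STAR, DESeq2 and mm10 are named in the submitters' processing notes, without versions, while the counting tool, annotation and strand setting are not given in the sources used here. The 4 summary lines of each file (unmapped, multimapping, no feature and ambiguous; 4.01 to 4.79%, 3.8 to 4.5%, 9.78 to 13.0% and 1.92 to 2.08% of all lines' sum) were left out. Genes listed totalled 14982560 to 19070126 counts per library, so 3 counts equal 0.157 to 0.2 CPM.

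Counts were filtered with filterByExpr (minimum count 10, minimum total 15), which left 14508 of 23412 genes, scaled by TMM and tested with glmQLFTest of edgeR 4.0.16 in R 4.3.3 on all 15 libraries, with 1 term per condition. Differential expression was called at a Benjamini-Hochberg adjusted p under 0.1 over all genes tested. The SE is the absolute log2 fold change divided by the square root of F, and normalized counts are TMM-scaled counts at a common depth of 17409359. DESeq2 1.42.0 served as an alternative, with limma 3.58.1 installed beside edgeR, and the plots were made in Python 3.11.15 (matplotlib 3.10.9). Groups came from the sample labels. Other alternatives were another scaling, other filters, a stricter threshold, fits on the compared libraries alone, a replicate block and leaving out each library. Libraries without replicate 1 were an alternative chosen after seeing the data.

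The 36 genes and all lists were chosen with earlier results of these data known. Every one of the 36 that was called is named, and from each pathway list the 2 largest rises and the 2 largest falls among the genes called, except for 1 result that is not reported here. Same-numbered libraries were taken as paired where the deviations of every pair from their condition means correlated above 0.1. This held for Stag1-/- against wild-type siGLO (r from 0.109 to 0.228 over 3 pairs), wild-type siStag1 against wild-type siGLO (0.134 to 0.397), Stag1-/- against Stag2-/- (0.178 to 0.239) and Stag2-/- siStag1 against Stag2-/- siGLO (0.243 to 0.628), and not for Stag2-/- (lowest r 0.0627) or Stag2-/- siStag1 (0.0456) against wild-type siGLO. The pairing comes from the data, since the labels give only numbers. No replicate of a condition was a copy of another, with a chi-square per degree of freedom of 4.56 to 25.8 over the 15 replicate pairs. Gene positions and exon lengths came from GENCODE M21 (98.5% of genes matched by current or older symbol) and promoters from RefSeq, where Calcoco2, Map1lc3a, Becn1, Ctsb, Npc1 and Laptm4b had no entry. Exon overlaps and shared stretches of 150 bases were taken from the same annotation.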

Additional observations from a re-analysis of the deposited data

Results flagged for a closer look

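For 5 genes the change from wild-type siGLO differed between Stag1-/- and Stag2-/- cells by the direct test between the clones. The log2 difference, positive where Stag1-/- was higher, was 0.73 for Gaa, 0.53 for Atg7, 0.44 for Sqstm1, 0.37 for Ctsd and 0.29 for Ctsb. Against wild-type siGLO, Gaa was at 0.20 in Stag1-/- and −0.53 in Stag2-/- cells, Atg7 at 0.43 and −0.10, and Sqstm1 at 0.37 and −0.07. Ctsd was at −0.13 and −0.50, and Ctsb at −0.18 and −0.46. No further gene of the 36 met the rules for a closer look that apply to groups of 3 libraries.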

How the results depend on the processing

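Each of the 53 calls among the 36 genes kept its direction under every alternative. All 53 remained called with DESeq2, with its size factors in edgeR, with at least 10 counts in every library and with the replicate block, while 8 were lost at an adjusted p under 0.05, 6 in fits of only the compared libraries, 4 without replicate 1 of every condition, 3 with library size alone and 1 with no filter. Of the 318 fits of these calls that left out 1 library, 46 lost the call. With the replicate block the calls among the 36 genes were 15 in Stag1-/-, 22 in Stag2-/-, 1 in wild-type siStag1 and 28 in Stag2-/- siStag1 cells against wild-type siGLO, 12 between the clones, 6 for siStag1 in Stag2-/- cells and 1 (Ulk1) for the difference of the siStag1 effects. Without replicate 1 of every condition they were 20 in Stag2-/- cells, 8 between the clones and 2 for the difference. That setting gave 5028 calls over all genes in Stag2-/- cells (4110 with all libraries) and 3982 between the clones (3722). Over all genes, the block gave 4443 calls in Stag1-/- (2907 without it), 5723 in Stag2-/- (4110), 7792 in Stag2-/- siStag1 (6364), 5416 between the clones (3722), 236 in wild-type siStag1 (36), 2049 for siStag1 in Stag2-/- cells (924) and 138 for the difference (23). DESeq2 gave 133 in wild-type siStag1 and 102 for the difference. Fits of only the compared libraries gave 126 in wild-type siStag1, 2406 between the clones, 224 for siStag1 in Stag2-/- cells and 14 for the difference. Without replicate 1 the wild-type siStag1 comparison gave 65 and the difference 95, and an adjusted p under 0.05 gave 22 in wild-type siStag1 and 548 for siStag1 in Stag2-/- cells. Leaving out 1 library gave 1915 (without wild-type siGLO replicate 2) to 2748 calls over all genes in Stag1-/- cells, 2524 (without the same library) to 3985 in Stag2-/- cells, 1 to 15 in wild-type siStag1, 5166 to 6218 in Stag2-/- siStag1, 2539 to 3522 between the clones, 416 (without Stag2-/- siStag1 replicate 3) to 1484 (without its replicate 1) for siStag1 in Stag2-/- cells and 13 to 76 (without Stag2-/- siStag1 replicate 1) for the difference. Among the 36 genes the ranges were 8 to 11, 8 to 15, 0 to 1, 16 to 18, 4 to 5, 4 to 6 and 0 to 1. The cause of these shifts was not tested. Over all comparisons, 13 of the 15 libraries correlated best with libraries of their own number, which is a hint from the data and not from the design. With 14982560 or more counts in each library, depth did not limit the detection of any of the 36 genes.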
